A study of Mus musculus with 8 samples.

Results

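Knockdown of Cbx3, the gene of HP1 gamma, was compared with control knockdown in mouse pre-iPSCs. These are cells that started reprogramming towards induced pluripotent stem cells and stopped at an intermediate state. The comparison used 6 of the 8 arrays in the series: 3 from cells given siRNA to Cbx3 and 3 from cells given siRNA to luciferase, a target that mouse cells lack. Both groups grew in ordinary embryonic stem cell medium and received siRNA over 3 days, after which total RNA was labelled with biotin for Affymetrix arrays. The remaining 2 arrays, called 3XHMT, come from the same cell type after siRNA to Ehmt1, Ehmt2 and Setdb1 together, and they enter only where a difference between the knockdowns is given. The labels name biological replicates without saying what was repeated, so the spread behind every p may be technical. Control 1 was paired with Cbx3 1, control 2 with Cbx3 2 and control 3 with Cbx3 3. In the paired fit, p rests on the spread of the differences within pairs, moderated by limma across genes. Among probe sets with 1 gene symbol, the brightest on average across the 8 arrays stood for its gene, which gave 18193 genes.

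HP1 proteins bind histone H3 methylated at lysine 9 through their chromodomain and recruit further proteins through their chromoshadow domain. Mammals have HP1 alpha (Cbx5), HP1 beta (Cbx1) and HP1 gamma (Cbx3), of which HP1 gamma is also found over the bodies of active genes. In reprogramming, H3K9 methylation and its binding proteins are known as part of the chromatin state that separates pre-iPSCs from pluripotent cells, and Nanog is among the genes that stay silent in pre-iPSCs.

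The values are log2 RMA signals, and array medians lay between 5.87 and 5.90. Deviations from the group means correlated by 0.51, 0.62 and 0.74 between the control and Cbx3 arrays of 1 number, and by -0.56 to 0.07 between arrays of different numbers. The middle probe set for 18S ribosomal RNA moved with these numbers rather than with the groups, at 11.2 and 11.5 in pair 1, 12.8 and 12.6 in pair 2 and 10.2 and 9.98 in pair 3. Of 6 markers of pre-iPSCs, Pou5f1, Sox2, Sall4 and Alpl had control signals above the median of the arrays, while Fut4 (mean 3.92) and Lin28a (mean 4.58) lay below it. Among 9 fibroblast markers only Col1a2 was above that median in control cells, and 0 of the 9 passed limma's test (2 at an unadjusted p under 0.05); their mean signal ran from 5.10 to 5.43 in control arrays and from 5.30 to 5.56 in Cbx3 arrays. None of the macrophage and blood, trophoblast, primitive endoderm or neuron markers passed, and of 4 endothelial markers Tek was lower. Of the 6 pre-iPSC markers Alpl was lower, and of 4 markers of full pluripotency (Nanog, Zfp42, Dppa4 and Esrrb) Nanog and Esrrb were higher. The mean signal of these 4 ran from 5.78 to 6.14 in control and from 6.44 to 7.11 in Cbx3 arrays. The 4 did not rise together: Nanog differed by 3.31 and Esrrb by 0.44 on the log2 scale, Zfp42 by -0.25 and Dppa4 by -0.32. In bulk RNA such as this, fewer cells of a type and less RNA per cell cannot be told apart.

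Cbx3 RNA fell in every pair at the bright probe sets, whose means stood between 37.9% and 43.9% of control. Single pairs ran from 27.5% to 57.0% of control across these probe sets. The other HP1 genes did not pass the test. The brightest probe set read 13.06, 13.16 and 13.33 in control arrays and 12.25, 11.83 and 11.79 in Cbx3 arrays. The groups did not overlap, and the signal stood at 57.0%, 39.8% and 34.4% of control in pairs 1, 2 and 3. The mean was 42.8% of control, a log2 difference of -1.23 ± 0.14 (SE, n = 3 pairs; limma adjusted p = 0.00403 over all probe sets). The next brightest probe sets stood at 43.9% and 37.9% of control (adjusted p = 0.00242 and 0.00319). In that fit of 45037 probe sets, 1776 passed, or 3.94%. These bright probe sets are also annotated to the pseudogene Cbx3-ps5, so the 2 transcripts cannot be separated by them. A dim probe set annotated to Cbx3 alone stood at 82.9% of control (adjusted p = 0.447). Without the pairing, in a fit of all 8 arrays, the adjusted p of the bright probe sets was 0.0453, 0.0525 and 0.0465.

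**Figure D1:**
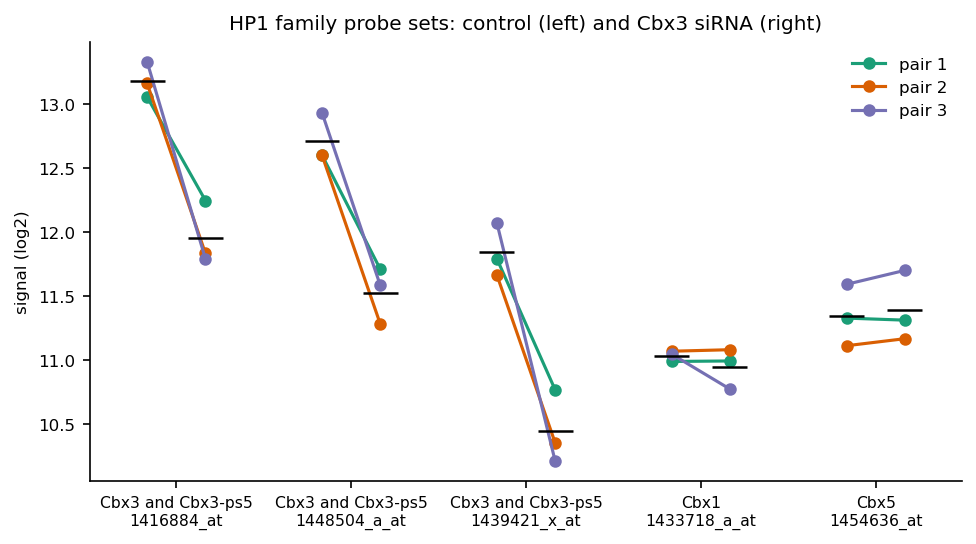
Log2 signal of the 3 bright Cbx3 probe sets and of the brightest Cbx1 and Cbx5 probe sets in control arrays (left of each set) and Cbx3 arrays (right); coloured lines join the arrays of a pair and black bars are group means (n = 3). The Cbx3 signal is lower in every pair, while the lines of Cbx1 and Cbx5 are close to level except in pair 3 of Cbx1.

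For Cbx1, which encodes HP1 beta, the log2 difference was -0.09 ± 0.11 (SE, adjusted p = 0.79), with the signal at 100.3%, 100.8% and 82.8% of control in the pairs. For Cbx5, which encodes HP1 alpha, it was 0.05 ± 0.0985 (SE, adjusted p = 0.881). None of the 5 probe sets of either gene passed. These errors leave room for small changes of either paralog.

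Of the 18193 genes, 1448 (7.96%) changed between Cbx3 and control arrays at a limma adjusted p under 0.05 with the pair as a block: 692 were higher (3.8%) and 756 lower (4.16%). Without the block, in a fit of all 8 arrays, 81 genes passed (0.445%), 46 higher and 35 lower, and all 81 were among the 1448. Every one of the 1448 moved the same way in all 3 pairs, which the paired test itself favours. So did 6192 of the 16745 genes that were not called. The changes of the 1448 were modest, with a median size of 0.61 on the log2 scale in each direction, and 109 rises and 115 falls were beyond 2-fold. The groups did not overlap for 467 of the 692 and 514 of the 756 (over all genes 2601, or 14.3%). Of the higher genes 188 (27.2%) had a control signal below the median of the arrays, and of the lower genes 68 (8.99%), against 6685 of all 18193 genes (36.7%). Where a gene had more than 1 probe set, the second brightest moved the same way for 279 of 311 higher genes and 418 of 469 lower genes, and itself passed for 107 and 193. Without pair 3 the count was 556, of which 523 were among the 1448.

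**Figure D2:**
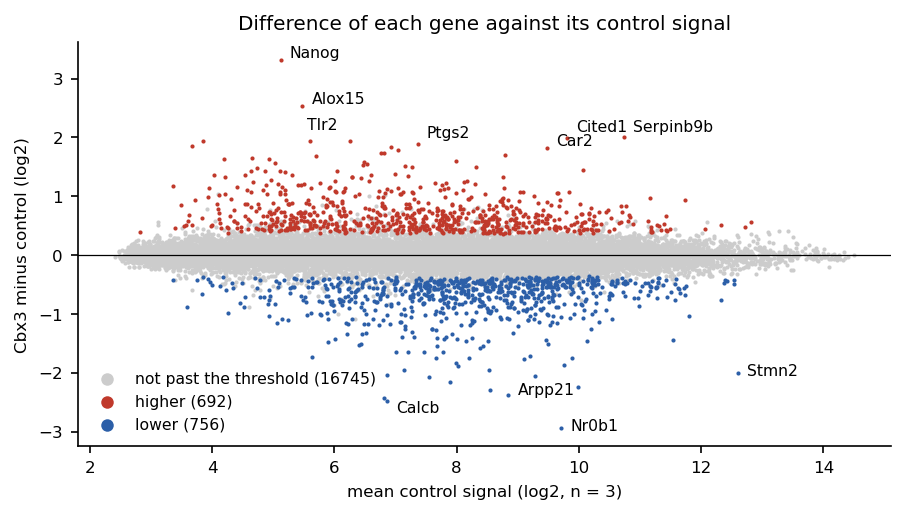
Log2 difference between Cbx3 and control arrays against the mean control signal (log2, n = 3) for each of 18193 genes; red points are the 692 genes higher and blue points the 756 genes lower in Cbx3 arrays at a limma adjusted p under 0.05. Nanog stands highest from a control signal of 5.13, and Nr0b1 lowest from one of 9.71.

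Nanog, a homeodomain transcription factor at the centre of the pluripotency network, had the largest rise of any named gene. Its signal read 4.87, 5.10 and 5.41 in control arrays and 7.79, 9.28 and 8.25 in Cbx3 arrays. The lowest Cbx3 array was thus well above the highest control array, and control signals lay below the median of the arrays, where a fold change is compressed. The rise was 9.94-fold, a log2 difference of 3.31 ± 0.23 (SE, n = 3 pairs; limma adjusted p = 0.000354, and 0.0151 without the block), and it passed without any of the 3 pairs.

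The promoter of Nanog is shown because this rise is the largest and because Oct4 (Pou5f1) and Sox2 are known to bind side by side there. It covers the 250 bases before the RefSeq start on build GRCm38.p6, chr6:122707239-122707488, plus strand, with the octamer core TTTGCAT and the Sox core ACAATG in capitals.

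Nanog promoter: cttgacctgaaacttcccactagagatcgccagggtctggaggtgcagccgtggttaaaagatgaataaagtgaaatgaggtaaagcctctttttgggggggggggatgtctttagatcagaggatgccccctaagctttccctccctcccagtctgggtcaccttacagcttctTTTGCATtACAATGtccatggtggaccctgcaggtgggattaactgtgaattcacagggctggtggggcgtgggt

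The octamer core lies 75 to 69 bases and the Sox core 67 to 62 bases before the start. Searched on both strands, the octamer core was present in 500 of 14452 promoters of measured genes (3.46%), the Sox core in 1123 (7.77%) and both in 75 (0.519%). These matches describe letters in the window. The genes of the factors named did not pass: Pou5f1 read 13.23, 13.14 and 12.59 in control and 12.83, 12.84 and 12.85 in Cbx3 arrays, a log2 difference of -0.15 ± 0.14 (SE, limma adjusted p = 0.619), and Sox2 differed by 0.46 ± 0.20 (adjusted p = 0.228).

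The genes of the pluripotency list moved both ways. Of 49 measured members 25 had a higher and 24 a lower value, and the median difference was 0.00, against 0.01 over all genes. By limma 4 were higher (8.16%) and 11 lower (22.4%), and at an unadjusted p under 0.05, 15 were higher and 15 lower. Besides Nanog the higher members were the transcription factor genes Tfcp2l1 (1.5-fold), Sox15 (1.39-fold) and Esrrb (1.36-fold). Esrrb read 6.10, 6.38 and 6.30 in control arrays and 6.53, 6.70 and 6.88 in Cbx3 arrays, without overlap (adjusted p = 0.0305). Of these 4 members Nanog alone passed without pair 3.

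Nr0b1, which encodes the nuclear receptor Dax1, an X-linked member of the embryonic stem cell network, had the largest fall of any named gene. It read 10.42, 9.58 and 9.14 in control arrays and 7.75, 6.84 and 5.75 in Cbx3 arrays. The arrays did not overlap and the order of the pairs was the same in both groups. The fall was 7.64-fold, a log2 difference of -2.93 ± 0.14 (SE; limma adjusted p = 0.000156, and 0.0601 without the block).

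The other lower members of the list were genes of signalling and of early embryonic cells. Jam2, a junctional adhesion molecule, was 4.90-fold lower and Eras, an embryonic stem cell Ras, 2.23-fold lower. The nuclear receptor gene Nr5a2 was 2.13-fold lower and the chromatin-associated Dppa2 1.81-fold lower (limma adjusted p = 0.00497 and 0.00492). The LIF receptor gene Lifr, 1.70-fold lower, read 11.68, 11.41 and 11.64 in control arrays and 11.13, 10.51 and 10.80 in Cbx3 arrays, without overlap. The ligand genes Nodal and Fgf4 were 1.68-fold and 1.64-fold lower, the phosphatase gene Alpl 1.61-fold, the Polycomb gene Phc1 1.57-fold and the Nodal co-receptor gene Tdgf1 1.44-fold. Nodal, Fgf4 and Tdgf1 did not pass without pair 3, and the remaining 8 lower members did. Klf4, Zfp42 and Dppa4 did not pass, with log2 differences of 0.34 ± 0.16, -0.25 ± 0.10 and -0.32 ± 0.0973 (SE, adjusted p = 0.29, 0.221 and 0.096). At its second probe set, however, Klf4 was 0.58 higher and passed (limma adjusted p = 0.0192 in the fit of second brightest probe sets).

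The 12 largest rises ran from 9.94-fold to 3.46-fold, and the arrays of the groups overlapped for none of them. Alox15, a lipoxygenase that oxidises polyunsaturated fatty acids, read 5.46, 5.52 and 5.46 in control and 7.49, 8.04 and 8.50 in Cbx3 arrays. All control arrays lay close together and the Cbx3 arrays spread upwards (5.77-fold, limma adjusted p = 0.000295). Ptgs2, the inducible prostaglandin synthase, rose by almost the same amount in every pair, from 7.24, 7.29 and 7.56 to 9.17, 9.15 and 9.46 (3.72-fold, adjusted p = 0.000156). Cited1, an X-linked transcriptional coactivator gene, went from 10.02, 9.87 and 9.54 to 11.91, 11.66 and 11.86 (3.99-fold, adjusted p = 0.000201).

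The serpin gene Serpinb9b rose 4.02-fold, and its control arrays themselves spread from 10.16 to 11.63. Tlr2, an innate immune receptor of bacterial lipoproteins, rose 3.84-fold, and Popdc3 and Palmd rose 3.84-fold and 3.82-fold. Edil3, an integrin-binding matrix protein gene, rose 3.63-fold, but its second probe set differed by 0.22 on the log2 scale. Chil1, a chitinase-like protein gene, rose 3.56-fold and the carbonic anhydrase gene Car2 3.52-fold. Car2 read 8.38, 9.47 and 10.60 in control arrays and 10.68, 11.14 and 12.07 in Cbx3 arrays, so that the pairs differed more than the lowest Cbx3 array did from the highest control array, and it did not pass without the block (adjusted p = 0.28). Crispld2, a secreted protein gene, rose 3.46-fold and by 1.73 on the log2 scale at its second probe set. All 12 passed without each pair in turn, 8 passed without the block, and 5 had control signals below the median of the arrays.

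After Nr0b1, the largest fall was that of Calcb. Calcb, a calcitonin-related peptide gene, read 7.78, 6.13 and 6.70 in control and 4.61, 4.16 and 4.41 in Cbx3 arrays (5.56-fold lower, limma adjusted p = 0.000552). Hbb-y, the embryonic beta-like globin gene, read 7.04, 5.95 and 7.45 in control and 4.87, 3.77 and 4.51 in Cbx3 arrays (5.38-fold lower, adjusted p = 0.000274), and its second probe set fell by 2.49 on the log2 scale. Both genes went from above the median of the arrays to below it. Akr1c14, an aldo-keto reductase gene, was 4.75-fold lower, Shisa3 4.10-fold and the X-linked zinc finger gene Zfp711 3.87-fold. The second probe set of Zfp711 differed by only -0.35 on the log2 scale and did not pass (limma adjusted p = 0.152).

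Stmn2, a microtubule-destabilising phosphoprotein gene of neurons, fell from 12.41, 12.36 and 13.06 to 11.12, 9.68 and 11.03 (3.99-fold, adjusted p = 0.00167). It remained above the median of the arrays in all 3 Cbx3 arrays. The phosphoprotein gene Arpp21 was 5.17-fold lower and the transcription factor gene Rfx4 4.45-fold lower, but their second probe sets differed by -0.04 and -0.06 on the log2 scale, so that their falls rest on 1 probe set each. All 12 falls passed without each pair in turn and 3 passed without the block. Pair 3 held the largest difference for 8 of the 12 falls and for 2 of the 12 rises.

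**Figure D3:**
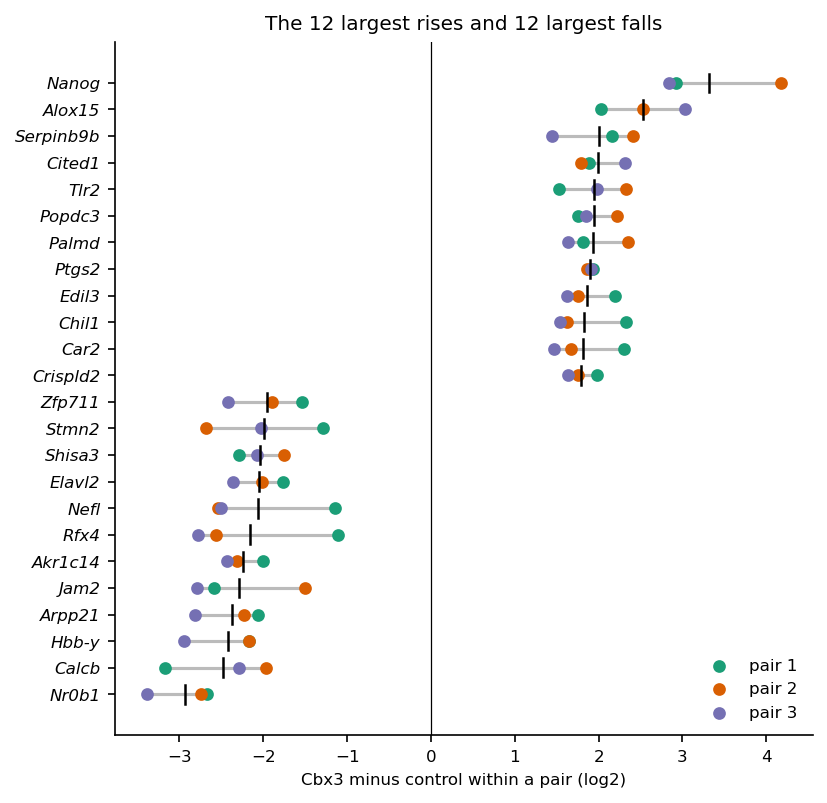
Log2 difference between the Cbx3 and the control array of each pair (coloured points) for the 12 genes with the largest rises and the 12 with the largest falls; the black tick is the mean of the pairs. Every point of a rise lies above 0 and every point of a fall below it, as the choice of these genes required, and Nanog in pair 2 reaches 4.17.

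In all, 29 gene lists with 1037 measured entries were examined against the background of 3.8% higher and 4.16% lower over all genes. The widest departures were the epithelial list on the higher side and the neural, p53, amino acid and pluripotency lists on the lower side. The lists and their members were chosen with earlier results of these data known, so that choice can add to these departures. HP1 and heterochromatin proteins (21 measured) and Hox clusters (33 measured) had 0 members past the limma threshold. The former list holds Cbx3 itself, which counts as not passing there because a dim probe set with Cbx3 as its only symbol stood for it, while its bright probe sets, with 2 symbols, fell as given above. At an unadjusted p under 0.05, limma gave 1 higher and 1 lower member of the former and 4 higher and 1 lower of the latter, and 0 of either passed in the fit without the block. Their members with the lowest p included Pogz, a zinc finger protein gene, 0.29 higher on the log2 scale (adjusted p = 0.225), and Hoxc10, 0.45 higher (adjusted p = 0.109). Without the block, in a fit of all 8 arrays, each list had between 0 and 4 members past the threshold.

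**Figure D4:**
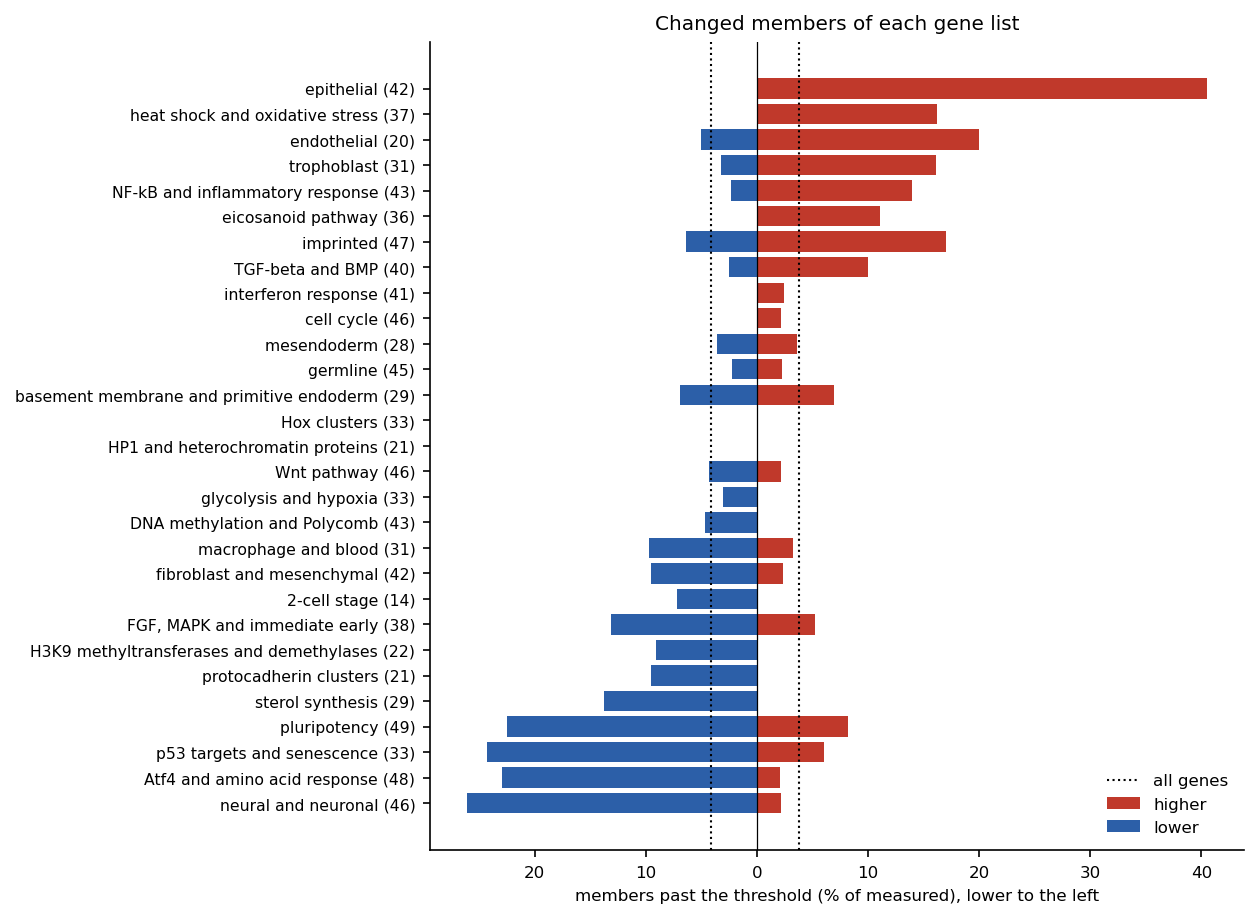
Percent of the measured members of each gene list (number in brackets) that were higher (red, right) or lower (blue, left) in Cbx3 arrays at a limma adjusted p under 0.05; dotted lines mark 3.8% higher and 4.16% lower over all genes. The epithelial bar reaches 40.5% with no lower member, and the neural bar 26.1% on the lower side.

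The epithelial list held the highest count of rises among the 29 lists. Of 42 measured members 17 were higher (40.5%) and 0 lower by limma (24 and 2 at an unadjusted p under 0.05), 35 had a higher value, and the median difference was 0.29, or 0.47, 0.22 and 0.28 in the 3 pairs (all genes 0.01). Krt8, a keratin of simple epithelia, read 7.08, 8.65 and 8.23 in control arrays and 9.56, 9.65 and 9.56 in Cbx3 arrays (3.04-fold, adjusted p = 0.00633). Its Cbx3 arrays lay close together above a wide control range, and its partner keratin gene Krt18 rose 1.57-fold. Tight junction genes were among the largest rises: Cldn4 went from 6.54, 7.86 and 7.08 to 8.66, 9.04 and 8.32 (2.85-fold), Marveld3 rose 2.51-fold, Cldn3 1.82-fold and Tjp3 1.46-fold.

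The adhesion genes Epcam and Cdh1, which encodes E-cadherin, rose as well. Epcam went from 10.65, 11.70 and 11.16 to 11.87, 12.46 and 12.12, without overlap (1.97-fold, adjusted p = 0.00199). Cdh1 went from 9.64, 10.83 and 9.59 to 10.91, 11.39 and 10.36 (1.83-fold, adjusted p = 0.00808), where the lowest Cbx3 array lay below the highest control array. Among regulators, the grainyhead factors Grhl3 and Grhl1 rose 2.08-fold and 1.62-fold, the splicing factors Esrp1 and Esrp2 1.69-fold and 1.60-fold, and Ovol2 and Elf3 1.63-fold and 1.39-fold. The anchoring protein gene Lad1 rose 1.94-fold, the protease gene Prss8 1.68-fold and the protease inhibitor gene Spint1 1.59-fold. The second probe set of Esrp2 differed by -0.04. Of the 17, 13 passed without pair 1, 17 without pair 2 and 12 without pair 3, while 0 passed without the block. The rise was larger in pair 1 at the median member than in the other pairs.

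Genes of mesenchymal cells did not move as a group. Of 42 fibroblast and mesenchymal members 1 was higher (2.38%) and 4 were lower (9.52%), with a median of 0.01. Over all genes the shares were 3.8% and 4.16%. Cdh2, which encodes N-cadherin, read 9.56, 9.54 and 9.88 in control and 8.98, 8.75 and 8.63 in Cbx3 arrays, without overlap (1.84-fold lower, limma adjusted p = 0.00643). The connective tissue growth factor gene Ccn2 was 1.47-fold lower, the smooth muscle actin gene Acta2 1.46-fold and the fibronectin gene Fn1 1.33-fold. The fall of Acta2 and the 2.31-fold rise of the lysyl oxidase-like gene Loxl1 were absent at their second probe sets (log2 differences of 0.08 and -0.01), and of the 4 lower genes Cdh2 alone passed without pair 3. Vim, which encodes the filament protein vimentin, differed by -0.17 ± 0.0956 (SE, adjusted p = 0.378), and Thy1 by 0.50 ± 0.22 (adjusted p = 0.24).

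Of 46 measured members of the neural list 12 were lower (26.1%) and 1, the Notch ligand gene Dll3, was higher, although the median difference was only -0.05. Elavl2, a neuronal RNA-binding protein gene, read 9.46, 9.0 and 9.39 in control and 7.70, 6.99 and 7.03 in Cbx3 arrays (4.13-fold lower, limma adjusted p = 0.000201). Its paralog Elavl4 was 1.35-fold lower. Nefl, the light neurofilament gene, went from 6.55, 7.88 and 8.20 to 5.42, 5.33 and 5.69 (4.18-fold lower, adjusted p = 0.0024), and Uchl1, a neuronal ubiquitin hydrolase gene, from 7.79, 6.92 and 6.70 to 5.66, 4.93 and 4.97 (3.87-fold lower). In each of these 3 genes the groups stood apart, and the Cbx3 arrays of Nefl and Uchl1 lay below the median of the arrays.

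The planar polarity gene Prickle2 was 3.38-fold lower, and with it the transcription factor genes Zic1 (2.26-fold), Sox11 (1.66-fold) and Neurod1 (1.39-fold) and the adhesion gene Ncam1 (1.97-fold). Calcb, Arpp21 and Stmn2, described above, complete the 12. Of these, 11 passed without pair 1, 10 without pair 2 and 8 without pair 3. By mean signal over all 8 arrays, 33 of the 46 members lay below the median gene, as did 9096 of all 18193 genes. In either direction 0 of 5 neuron markers (Tubb3, Map2, Rbfox3, Snap25 and Syt1) passed (1 at an unadjusted p under 0.05). Their mean signal ran from 5.49 to 6.04 in control and from 5.83 to 6.07 in Cbx3 arrays.

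Several genes of amino acid supply, many of them known targets of the stress factor Atf4, were lower. Of 48 measured members of the Atf4 and amino acid list 11 were lower (22.9%) and 1, Cebpb, was higher, and the median was -0.14. Slc7a11, the cystine transporter, read 7.58, 8.08 and 8.40 in control arrays and 6.53, 5.95 and 5.92 in Cbx3 arrays, without overlap (3.70-fold lower, limma adjusted p = 0.00268). The cationic amino acid transporters Slc7a3 and Slc7a1 were 2.73-fold and 1.59-fold lower. In serine synthesis Psat1 went from 10.73, 10.70 and 10.82 to 9.99, 9.98 and 10.21 (1.61-fold lower, adjusted p = 0.00418), Phgdh was 1.47-fold lower, and the serine hydroxymethyltransferase gene Shmt2 1.3-fold.

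Cth, which makes cysteine from cystathionine, was 1.70-fold lower, the alanine transaminase gene Gpt2 1.58-fold, the asparagine synthetase gene Asns 1.53-fold and the folate enzyme gene Aldh1l2 1.34-fold. The lipoprotein receptor gene Vldlr, which stands in the list as an Atf4 target, was 1.74-fold lower. Atf4 itself differed by 0.05 ± 0.0989 (SE, adjusted p = 0.854), and its stress targets Trib3, Ddit3 and Chac1 by 0.02, 0.14 and -0.05, none past the threshold. Of the 11, 9 passed without pair 1, 9 without pair 2 and 5 without pair 3, and 3 passed without the block. Cebpb did not pass without pair 3.

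The promoters of Slc7a11 and Asns are shown because both are textbook targets of Atf4 and both fell. The capitals mark TGATGNAA, the core of the C/EBP-ATF response element, searched on both strands. The windows are the 250 bases before the RefSeq start on GRCm38.p6, chr3:50443614-50443863 and chr6:7693210-7693459, both read from the minus strand.

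Slc7a11 promoter: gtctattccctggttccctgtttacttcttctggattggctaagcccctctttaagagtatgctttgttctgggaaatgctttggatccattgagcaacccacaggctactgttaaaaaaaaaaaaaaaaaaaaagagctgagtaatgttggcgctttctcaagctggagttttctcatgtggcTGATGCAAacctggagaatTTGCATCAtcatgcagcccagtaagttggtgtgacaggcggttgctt

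Asns promoter: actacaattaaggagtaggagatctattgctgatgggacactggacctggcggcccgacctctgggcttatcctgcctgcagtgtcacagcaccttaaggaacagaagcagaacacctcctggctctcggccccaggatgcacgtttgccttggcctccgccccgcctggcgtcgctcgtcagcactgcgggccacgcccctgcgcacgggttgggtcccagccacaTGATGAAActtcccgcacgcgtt

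Slc7a11 holds the core at 66 to 59 and, on the other strand, at 47 to 40 bases before the start, and Asns at 23 to 16 bases. Both matches of Slc7a11 share bases with the octamer core. The core stood in 2 of 8 lower list members with a promoter in the table, in 7 of 31 other members (22.6%) and in 352 of 14452 promoters of measured genes (2.44%). The other 3 lower members had no promoter in the table, and the shares within the list were not tested.

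**Figure D5:**
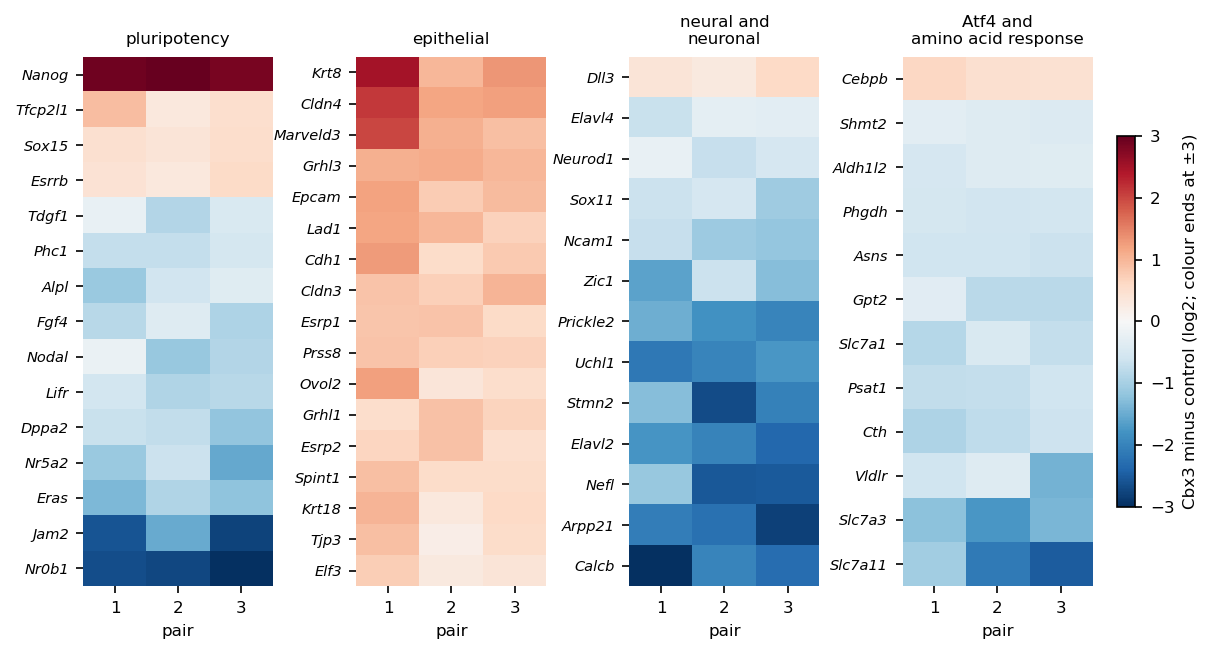
Log2 difference between the Cbx3 and the control array of each pair (columns) for every member past the limma threshold in the pluripotency, epithelial, neural and amino acid lists; red is higher and blue lower in Cbx3 arrays, and the colour ends at 3 either way. Nanog stands apart at the top of the pluripotency panel, the epithelial panel is red throughout and strongest in pair 1, and the other panels are mostly blue.

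Some inflammatory and eicosanoid genes rose. Of 43 measured members of the NF-kB list 6 were higher (14.0%) and 1, the signalling inhibitor gene Irak3, was lower, with a median of 0.12. Besides Tlr2 and Chil1 these were the acute phase gene Saa3 (1.92-fold), the chemokine gene Ccl2 (1.91-fold), the NF-kB cofactor gene Nfkbiz (1.54-fold) and the cytokine gene Csf1 (1.46-fold). Ccl2 read 5.58, 5.70 and 5.44 in control and 6.66, 6.14 and 6.71 in Cbx3 arrays, without overlap (limma adjusted p = 0.00916). Of the higher members Tlr2 and Chil1 alone passed without pair 3, and the lower member Irak3 passed there too. The second probe set of Nfkbiz differed by only 0.10 on the log2 scale and did not pass. In the eicosanoid list 4 of 36 were higher and 0 lower: Alox15, Ptgs2, the prostaglandin D synthase gene Ptgds (1.98-fold) and Alox5ap (1.48-fold), which presents substrate to 5-lipoxygenase. The median of this list was 0.04, and Alox5ap did not pass without pair 3. Of 41 interferon response genes 1, Isg20, passed, and it did not pass without pair 3.

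Among heat shock and oxidative stress genes 6 of 37 were higher (16.2%) and 0 lower. The inducible Hsp70 genes Hspa1b and Hspa1a rose 2.84-fold and 1.63-fold; Hspa1b went from 8.61, 8.58 and 7.75 to 10.11, 9.83 and 9.51, without overlap. These genes are near-identical copies, so their signals are uncertain as separate values. The glutathione peroxidase gene Gpx2 rose 2.11-fold, the haem oxygenase gene Hmox1 1.54-fold, the quinone reductase gene Nqo1 1.40-fold and the sulfiredoxin gene Srxn1 1.38-fold. Of the 6, 2 passed without pair 1, 4 without pair 2 and 3 without pair 3. The second probe set of Srxn1 differed by 0.19 on the log2 scale and did not pass.

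Imprinted genes moved in both directions: 8 of 47 were higher (17.0%) and 3 lower (6.38%), with a median of -0.01. Igf2, a growth factor gene, went from 6.69, 7.55 and 7.59 to 8.74, 8.82 and 8.79 (2.84-fold, limma adjusted p = 0.00157), but its second probe set differed by 0.14. The retrotransposon-derived Peg10 rose 2.69-fold, with overlap between the groups, and Asb4, Pon2, Sgce and Pon3 rose 2.52-fold, 1.98-fold, 1.48-fold and 1.36-fold. These 5 genes lie on chromosome 6, where 44 of all 992 measured genes were higher (4.44%). Further list members on that chromosome did not pass, among them Ppp1r9a, Calcr and Dlx5 (log2 differences of -0.04, -0.59 and -0.10). Tspan32 rose 2.31-fold, with 0.09 at its second probe set, and Phlda2 1.36-fold. Of the 8 higher members 5 passed without pair 3. The lower members were Plagl1 (1.87-fold), Cobl (1.72-fold) and Ndn (1.45-fold), none of which passed without pair 3. At its second probe set Cobl differed by -0.23 on the log2 scale and did not pass.

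Of 31 trophoblast genes 5 were higher (16.1%) and 1 lower, with a median of 0.17. The X-linked homeobox genes Rhox9 and Rhox6 rose 3.35-fold and 2.94-fold, each from a wide control range: Rhox9 read 5.58, 6.84 and 7.85 in control and 7.87, 8.27 and 9.36 in Cbx3 arrays. Peg10, Gata2 (1.55-fold) and Tinagl1 (1.41-fold) complete the higher members, and Tead4, a trophoblast transcription factor gene, was 1.37-fold lower. Without pair 3, Rhox9, Rhox6 and Peg10 alone passed. The 5 defining markers Cdx2, Elf5, Eomes, Tfap2c and Krt7 did not pass, and their mean signal ran from 5.94 to 6.56 in control and from 6.37 to 6.57 in Cbx3 arrays.

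Several p53 targets were lower. Of 33 measured members 8 were lower (24.2%) and 2, Plk3 (1.71-fold) and Btg2 (1.67-fold), were higher, with a median of -0.05. Igfbp3, which binds insulin-like growth factors, was 2.06-fold lower, Sesn1 1.66-fold, Ei24 1.49-fold and the death receptor gene Fas 1.47-fold, followed by Zmat3, Eda2r, Trp53inp1 and Plk2. Without pair 3 none of the 8 falls passed, while both rises did. The p53 targets Cdkn1a and Mdm2 differed by 0.15 and -0.07 and did not pass.

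In sterol synthesis 24 of 29 genes had a lower value, with a median of -0.13, and 4 passed (13.8%), Insig1 (1.59-fold), Cyp51 (1.52-fold), Sqle (1.49-fold) and Hmgcs1 (1.40-fold). None of these 4 passed without pair 3. In the FGF, MAPK and immediate early list 5 of 38 members were lower (13.2%) and 2 higher (5.26%), and the other members did not pass. The growth factor genes Ereg and Fgf4 were lower, and so were Etv4, Dusp4 and Dusp6, while the immediate early genes Dusp1 and Junb rose 1.42-fold and 1.37-fold. Ereg went from 5.12, 4.98 and 5.10 to 3.94, 3.93 and 3.87 (2.22-fold lower, limma adjusted p = 0.000586). Etv4 was 2.14-fold lower, but 0.07 higher on the log2 scale at its second probe set. Without pair 3, Ereg and Etv4 alone of this list passed.

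Of 40 TGF-beta and BMP genes 4 were higher (10.0%) and 1 lower (2.5%), against 3.8% and 4.16% over all genes. The pseudoreceptor gene Bambi rose 1.93-fold, Id3 1.57-fold, the BMP antagonist gene Chrd 1.38-fold and Tgfb3 1.34-fold, while Tgfb2 was 2.07-fold lower. Among these, Bambi and Tgfb2 passed without pair 3. In the Wnt list 1 of 46 genes was higher (2.17%) and 2 were lower (4.35%). The deacylase gene Notum, a Wnt antagonist, rose 3.24-fold, and Prickle2 and the receptor gene Fzd5 (1.53-fold) were lower. Fzd5 did not pass without pair 3, nor at its second probe set (-0.27 on the log2 scale). Of 29 basement membrane and primitive endoderm genes 2 were higher (6.9%) and 2 lower (6.9%), near the shares over all genes: Cited1 and Lama5 (1.74-fold) were higher, Lamb1 was 1.68-fold lower and Nid1 3.57-fold lower, the last with -0.37 at its second probe set, and Lama5 did not pass without pair 3. Of 20 endothelial genes 4 were higher (20.0%) and 1 lower (5.0%). Plvap (2.53-fold), Esam (1.86-fold), Sox18 (1.74-fold) and Vwf (1.43-fold) were higher and Tek was 2.61-fold lower. Sox18 and Vwf did not pass without pair 3.

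Of 22 H3K9 methyltransferases and demethylases the demethylase genes Kdm7a (1.67-fold) and Phf8 (1.39-fold) were lower (9.09%, against 4.16% over all genes). Of 43 DNA methylation and Polycomb genes Phc1 and Rnf2 (1.45-fold) were lower (4.65%). Phf8 and Rnf2 did not pass without pair 3, and the second probe set of Phf8 differed by only -0.16 on the log2 scale. Of 21 clustered protocadherin genes Pcdhb17 went from 5.64, 5.49 and 5.76 to 4.15, 3.83 and 3.71 (3.32-fold lower, limma adjusted p = 0.000357), and Pcdhb19 was 1.70-fold lower (9.52% of the list). Germline genes had 1 rise and 1 fall among 45 (2.22% each), and 2-cell stage genes 1 fall among 14 (7.14%). Mesendoderm genes had 1 rise and 1 fall among 28 (3.57% each). Cell cycle genes had 1 rise among 46 (2.17%), and glycolysis and hypoxia genes 1 fall among 33 (3.03%). Over all genes 3.8% were higher and 4.16% lower. The macrophage and blood list had 1 rise (3.23%) and 3 falls (9.68%) among 31. The falls were led by the lysosomal protein gene Laptm5 (3.38-fold lower, but 0.02 higher on the log2 scale with ambiguous probe sets, those ending in _x_at or _s_at, set aside).

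The Cbx3 and 3XHMT arrays were set against each other to show where the knockdowns differed, whichever of them moved from control. Over all genes 275 differed (1.51%) by limma on all 8 arrays without a block. Of the largest changes above, 6 of 12 rises and 7 of 12 falls differed from 3XHMT. With the array sets given by 18S signal as a block, 7 of 12 rises and 12 of 12 falls differed. These genes were chosen for extreme values in the same Cbx3 arrays, which by itself favours a difference from 3XHMT. Among all called genes, 96 of the 692 higher and 94 of the 756 lower differed without the block. Nr0b1 stood at 10.67 and 10.08 in the 3XHMT arrays, and the log2 difference of Cbx3 from them was -3.60 ± 0.56 (SE, adjusted p = 0.0244). For Elavl2 and Nefl it was -2.34 and -2.89 (adjusted p = 0.01 and 0.0277). Cited1, at 9.69 and 10.19 in the 3XHMT arrays, was 1.87 higher in Cbx3 arrays (adjusted p = 0.00818), as was Krt8 by 2.19 (adjusted p = 0.0336).

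For Nanog a difference between the knockdowns was not resolved: the 3XHMT arrays read 8.15 and 7.72, and Cbx3 arrays were 0.50 ± 0.39 (SE) higher (adjusted p = 0.761). Ptgs2 differed by 0.32 ± 0.19 (adjusted p = 0.633), Serpinb9b by 0.26 ± 0.41 and Car2 by -0.33 ± 0.63. Zfp42, Dppa4 and Dppa2 were lower in Cbx3 than in 3XHMT arrays, by -3.34, -2.88 and -3.54 on the log2 scale (adjusted p = 0.0151, 0.00546 and 0.0118). Most of this gap lay in the 3XHMT arrays, which stood 3.09, 2.56 and 2.68 above control (limma adjusted p = 0.0452, 0.0135 and 0.0682). Cbx3 arrays differed from control by -0.25, -0.32 and -0.85. With only 2 arrays of 3XHMT, this count rests on each of them: it was 24 without 3XHMT 1 and 22 without 3XHMT 2, and 77, 67 and 112 without Cbx3 1, 2 and 3. With the array sets given by 18S signal as a block it was 1660.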

How the data were processed

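Total RNA of mouse pre-iPSCs was measured on 8 Affymetrix arrays. The deposited table holds log2 values, and the submitters' processing notes name RMA as the authors' method; its version is not given in the sources used here. RMA quantile-normalizes arrays, so a shift shared by most genes is removed. Precision is limited by how few arrays there are.

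Of 45101 probe sets, 64 were controls, 34945 had 1 gene symbol in the platform annotation, 932 several and 9160 none listed; 34741 of the first matched the RefSeq table of GRCm38.p6, whose promoter table gave the sequences. Each gene took its probe set with the highest mean, and 9010 of 18193 genes had more than 1.

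Differences were fitted by lmFit and eBayes of limma 3.58.1 under R 4.3.3 (two-sided, 2 residual degrees of freedom) on 6 arrays, with the replicate number as a block and Benjamini-Hochberg adjustment over all genes at 0.05. The labels give the numbers, and same-numbered arrays deviated together (r of 0.51 to 0.74), which served as the check of the pairing. The fit was tested on simulated data. Unless another is named, each adjusted p comes from this fit; the Cbx3 probe sets were fitted among 45037 probe sets. SE is limma's.

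The genes named are Cbx3, Cbx1 and Cbx5, the 12 largest rises and 12 largest falls that moved alike in all pairs (unnamed models left out), up to 6 members past the threshold with the lowest p of each of 29 lists, 2 members with the lowest p where fewer passed, and 12 set genes. Other list members, the genes given as unchanged references and the X-linked genes were named after their values were seen. The members and lists were chosen with earlier results of these data known. Alternatives left out each pair, the block, dim genes or ambiguous probe sets, took other probe sets, or changed the normalization or the spread estimate.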

Additional observations from a re-analysis of the deposited data

Results flagged for a closer look

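Signal outside the gene-level comparison: of 9160 probe sets that the annotation used here does not list, 151 passed (1.65%) in the limma fit of all probe sets with the pair as a block, 52 higher and 99 lower in Cbx3 arrays, and 21 of them beyond 2-fold. They are unnamed here and enter none of the counts of genes.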

How the results depend on the processing

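The replicate block set the number of calls. Against 1448 genes with it, 27 passed with no replicate block on the same 6 arrays and 81 with no replicate block on all 8 arrays; over all probe sets, 14 and 35 passed against 1776. Leaving out 1 pair gave 556 to 1256 genes, the lowest without pair 3, and 1009 to 1777 probe sets. The other alternatives gave 1067 (second brightest probe set) to 1966 genes (trend and robust prior). The comparison of Cbx3 with 3XHMT (275 genes) gave 1660 with the 18S set as a block and 22 to 273 without 1 array. Of 120 named genes past the threshold, 11 remained so with no replicate block on 6 arrays and 23 on all 8, 101, 108 and 74 without pairs 1, 2 and 3, and 94 at the second brightest probe set. The sign turned there for Acta2 (0.077, also without ambiguous probe sets), Ccnd3 (-0.091), Etv4 (0.067), Loxl1 (-0.012), Tdrd7 (-0.106) and the uncalled Cbx1 (0.003), for Laptm5 without ambiguous probe sets (0.021), and for Cbx1 without 1 pair (-0.134 to 0.008). The cause of these changes was not tested, and the fits that leave some arrays out hold fewer arrays. Signals below the median of the arrays compress fold changes, and 3 pairs limit every value.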

Other observations

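Shares of lower genes by chromosome were looked at after the values were seen. Of 617 measured X-linked genes 58 were lower (9.4%) and 16 higher (2.59%) in Cbx3 arrays by limma, against 4.16% lower and 3.8% higher over all genes. The median X-linked gene differed by -0.03, and by 0.006, -0.04 and -0.05 in the pairs, where the median of all genes was 0.012, and 0.026, -0.004 and 0.006 in the pairs. Without pairs 1, 2 and 3 the share of lower X-linked genes was 8.43%, 7.94% and 4.54%, against 3.64%, 3.66% and 1.52% over all genes. Nr0b1, Zfp711, the membrane protein gene Tmem47 (3.63-fold lower), the urea cycle gene Otc (2.79-fold lower), Slc7a3 and Eras were among the lower X-linked genes, and Cited1, Rhox6, Rhox9 and Rhox5 (1.59-fold) among the higher. On chromosome 13, 53 of 702 genes were lower (7.55%), a share of 2.28% without pair 3.

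Pair 3 held the largest fall for 372 of the 756 lower genes, pair 1 for 244 and pair 2 for 140. Among the 692 higher genes pair 1 held the largest rise for 293, pair 2 for 182 and pair 3 for 217.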
